A study of Mus musculus with 8 samples.

Results

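Genes of the pentose phosphate pathway and of nucleotide synthesis were followed in activated mouse T cells kept with or without human beta-defensin-2 (hBD-2). The genes were taken from a list of 39 enzymes by the symbol of the array platform, with the probe set of the highest mean over the 8 arrays kept where a gene had several. Of the 39, 35 matched a named probe set, out of 19505 genes tested. G6pdx, Tkt, Pfas and Impdh2 had no match and are not analysed here.

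The data are 8 one-colour Affymetrix arrays of splenic T cells, both CD4 and CD8, from 4 male wildtype C57BL/6 mice. Every culture received anti-CD3 and anti-CD28 beads for 48 h. In 4 of them PBS was added as vehicle, and in the other 4 hBD-2, a small cationic antimicrobial peptide of epithelia. The peptide's dose is labelled 60 µL/mL, from which no mass concentration follows, and the labels used here name no age for the mice. The labels do not tie arrays to mice, so p-values measure the spread between these arrays. In bulk RNA, a change in the cells that express a gene and a change in RNA per cell cannot be told apart.

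A T cell that leaves rest copies its genome and makes large amounts of RNA, and both need nucleotides. The oxidative pentose phosphate branch turns glucose 6-phosphate into ribulose 5-phosphate and NADPH. The non-oxidative enzymes turn that sugar into ribose 5-phosphate and exchange sugars with glycolysis. Ribose 5-phosphate is activated to phosphoribosyl pyrophosphate (PRPP), the sugar on which purines are built and to which pyrimidine rings are joined. Salvage enzymes recycle bases and nucleosides, and ribonucleotide reductase and the thymidylate enzymes make the deoxynucleotides for DNA.

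With hBD-2, 9 of the 35 measured genes fell and 0 rose at a limma adjusted p under 0.05. They were Dut, Cad, Pgd, Tyms, Atic, Paics, Nme1, Prps1 and Hprt, with falls of 1.32-fold (Hprt) to 1.71-fold (Dut). Over all genes tested, 3.66% fell and 0.8% rose. The other 26 members did not pass. At an unadjusted p under 0.05, 24 members passed, all of them lower, against 12.8% of all genes lower and 22.3% in either direction. The log2 fold change, hBD-2 minus PBS, was below 0 in 34 of 35 members, with a median of -0.30, against 46.1% of all genes and a median of 0.02.

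The members were bright on these arrays, with a median position at percentile 85.1 of mean level, and 34 of 35 lay at or above the percentile 40, a log2 level of 4.74. When genes below that level were left out before the fit, 17 of 34 members fell and 0 rose, against 10.2% and 2.98% of the 11703 genes then tested. Of those brighter genes, 54.7% had a log2 fold change below 0, and their median was -0.03. At an unadjusted p under 0.05 in the fit over all genes, 23 of the 34 brighter members and 19.6% of the brighter genes were lower. In 18 of 35 members all hBD-2 arrays lay below all PBS arrays. The same held for 9.36% of all genes and 14.8% of the brighter ones. In 0 members did all hBD-2 arrays lie above, against 5.51% of all genes.

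**Figure D1:**
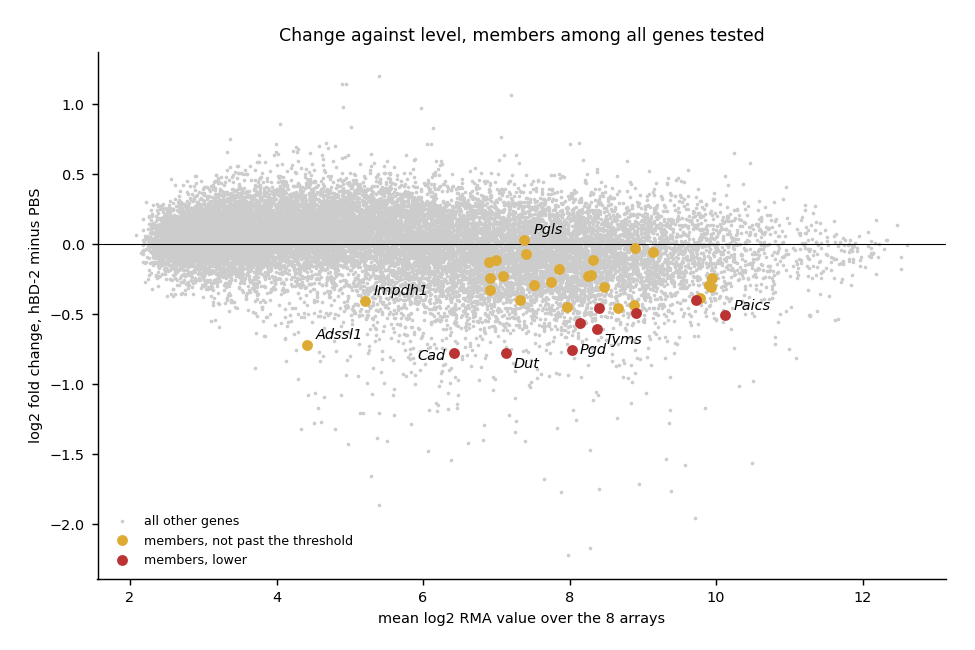
Log2 fold change (hBD-2 minus PBS, y axis) against the mean log2 RMA value over the 8 arrays (x axis) for all genes tested in grey, members that did not pass the threshold in yellow and members that fell in red. The members lie in the bright part of the plot, with 34 of 35 below 0 on the y axis.

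The arrays of the hBD-2 group were not alike. Relative to the PBS mean of each gene, the median over the 35 members was -0.18 on hBD-2 replicate 1, -0.21 on replicate 2, -0.51 on replicate 3 and -0.37 on replicate 4. In 22 of 35 members replicates 3 and 4 both lay below replicates 1 and 2. Neither these medians nor this split was taken over all genes, so they are not shown to be particular to the members. Replicates 3 and 4 of hBD-2 are also the arrays with the narrowest interquartile range over all probe sets. It was 3.45 log2 units on each, against 3.57 to 3.76 on the other 6, and the part of this range in the result was not tested. Quantile normalization repeated over all arrays gave 5 members lower (Dut, Pgd, Cad, Paics and Tyms) and 0 higher, against 2.67% of all genes lower, and a median of -0.23 over the members. Cyclic loess gave 6, these with Nme1, against 2.95% of all genes lower. Without hBD-2 replicates 3 and 4 together, an omission chosen after the data were seen, 2 members, Dut and Pgd, fell, against 0.574% of all genes, and the median was -0.24.

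The calls rested on single arrays to different degrees. Dut, Pgd and Cad fell whichever array was left out, with highest adjusted p-values over the 8 omissions of 0.00672, 0.0118 and 0.0427. Tyms and Paics kept the call when replicate 3 of PBS or replicate 1 of hBD-2 was omitted and lost it when any of the other 6 arrays was (highest adjusted p = 0.0764 and 0.0842). Nme1 kept it in those 2 omissions and in that of hBD-2 replicate 2 (highest adjusted p = 0.0959). Prps1 and Atic kept it only without hBD-2 replicate 1, and Hprt only without hBD-2 replicate 2 (highest adjusted p = 0.131, 0.136 and 0.120). The count of members lower was 3 when replicate 1 or 4 of PBS, or replicate 3 or 4 of hBD-2, was left out. It was 4 when replicate 2 of PBS was omitted and 6 when replicate 3 of PBS or replicate 2 of hBD-2 was. With hBD-2 replicate 1 omitted it was 13.

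**Figure D2:**
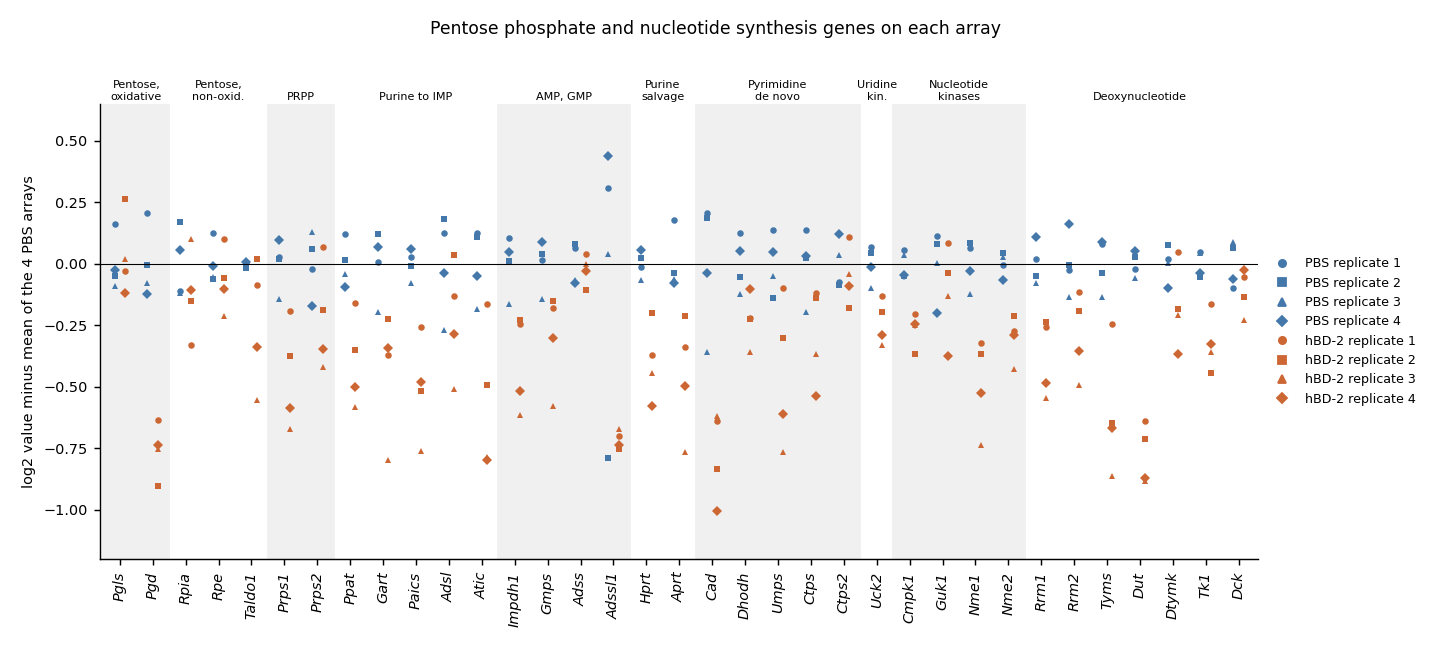
Log2 value of each of the 35 members (x axis, grouped by arm of the pathway) on each of the 8 arrays, minus the mean of the 4 PBS arrays (y axis), with colour for the group and symbol for the replicate. The hBD-2 points of Pgd, Cad and Dut lie clear of the PBS points. Replicate 3 is the lowest hBD-2 array in 21 of 35 members, a count not made over all genes.

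In the oxidative pentose phosphate branch, Pgd, the 6-phosphogluconate dehydrogenase that yields NADPH and the pentose, fell. Its log2 RMA values were 8.62, 8.41, 8.34 and 8.29 on the PBS arrays and 7.78, 7.51, 7.66 and 7.68 on the hBD-2 arrays. The groups lay apart by more than the spread within either, and hBD-2 replicate 2 was the lowest. The change was 1.69-fold (log2 fold change -0.76, SE 0.103, adjusted p = 0.00252). Pgls, the lactonase of the preceding step, was at 7.36 ± 0.111 (SD, n = 4) with PBS and 7.40 ± 0.164 with hBD-2. It was the 1 member with a log2 fold change above 0 (0.03), which was -0.043 without hBD-2 replicate 2.

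None of the 3 measured genes of the non-oxidative branch passed. Rpia, the ribose 5-phosphate isomerase, and Rpe, the epimerase, had log2 fold changes of -0.12 and -0.07, with overlapping groups, and that of Rpe was 0.0078 after quantile normalization and 0.0053 after cyclic loess. Taldo1, the transaldolase, lay between 7.01 and 7.04 on the 4 PBS arrays. On the hBD-2 arrays it was at 6.94, 7.05, 6.48 and 6.69, so that replicates 3 and 4 were low and replicates 1 and 2 were near the PBS level (adjusted p = 0.271).

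PRPP is made by the synthetases Prps1 and Prps2. Prps1 fell, from 8.65, 8.64, 8.48 and 8.72 to 8.43, 8.25, 7.95 and 8.04. Every hBD-2 array was below every PBS array, by a small margin for replicate 1, and the change of 1.37-fold was at the edge of the threshold (log2 fold change -0.45, SE 0.117, adjusted p = 0.0499). Prps2 was at 8.40 ± 0.129 and 8.18 ± 0.215, with a log2 fold change of -0.22 (adjusted p = 0.303).

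On the purine route from PRPP to inosine monophosphate (IMP), 2 of 5 measured enzymes fell and all 5 had a log2 fold change below 0. Paics, which joins the carboxylation and the aspartate step, was at 10.40, 10.36, 10.29 and 10.43 on the PBS arrays and at 10.11, 9.85, 9.61 and 9.89 on the hBD-2 arrays. The groups did not overlap, and replicate 3 was the lowest hBD-2 array (1.42-fold, log2 fold change -0.50, SE 0.111, adjusted p = 0.0288). Atic, which carries out the last steps to IMP, was at 8.55, 8.53, 8.24 and 8.38 with PBS and 8.26, 7.93, 7.64 and 7.63 with hBD-2. It was the 1 member that fell while its groups overlapped, since hBD-2 replicate 1 was just above PBS replicate 3 (log2 fold change -0.56, SE 0.143, adjusted p = 0.0495).

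Ppat, the amidotransferase of the committed step, had a log2 fold change of -0.40 (adjusted p = 0.0635), and Gart, which holds 3 activities of the route, one of -0.43 (adjusted p = 0.0834). In both the groups did not overlap. Ppat and Paics are neighbours whose annotated spans overlap in the RefSeq gene table of GRCm38.p6, and whether the array separates them fully was not tested. Adsl, the lyase that acts on this route and again in AMP synthesis, was at 8.37 ± 0.203 and 8.15 ± 0.232 (adjusted p = 0.362).

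From IMP, none of the 4 measured genes of the AMP and GMP branches passed. Impdh1, an IMP dehydrogenase on the way to GMP, was at 5.50, 5.42, 5.24 and 5.45 with PBS and 5.16, 5.17, 4.79 and 4.88 with hBD-2, without overlap (log2 fold change -0.40, adjusted p = 0.0703). Gmps, the GMP synthase, had a log2 fold change of -0.30 (adjusted p = 0.142). Adss, the adenylosuccinate synthase of most tissues, was at 8.90 ± 0.0842 and 8.88 ± 0.0609. Its log2 fold change of -0.02 was 0.076 after quantile normalization and 0.061 after cyclic loess.

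Adssl1, the isoform known from muscle, was the dimmest member. It was at 5.08, 3.98, 4.81 and 5.21 on the PBS arrays and between 4.02 and 4.10 on all 4 hBD-2 arrays. PBS replicate 2 lay with the hBD-2 arrays. The log2 fold change was -0.72 (SE 0.213, adjusted p = 0.0820). Without PBS replicate 2 the adjusted p was 0.00366. The lower quartiles of the arrays over all probe sets were 3.62 to 3.78.

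The purine salvage enzymes Hprt, which returns hypoxanthine and guanine to the nucleotide pool, and Aprt, which does so for adenine, were both lower on every hBD-2 array than on any PBS array. Hprt fell from 9.91, 9.95, 9.86 and 9.98 to 9.55, 9.72, 9.48 and 9.35 (1.32-fold, log2 fold change -0.40, SE 0.0993, adjusted p = 0.0460). With the replicate number as a block its adjusted p was 0.0634. Aprt had a log2 fold change of -0.45 without passing (adjusted p = 0.0635).

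In the pyrimidine route, Cad, the protein of the first 3 steps, fell 1.71-fold. Its values were 7.02, 7.0, 6.45 and 6.77 with PBS and 6.17, 5.97, 6.19 and 5.80 with hBD-2. PBS replicate 3 was low for its group yet above every hBD-2 array (log2 fold change -0.77, SE 0.140, adjusted p = 0.0108). The later enzymes did not pass. Dhodh, the mitochondrial dihydroorotate dehydrogenase, and Umps, which makes UMP, had log2 fold changes of -0.23 and -0.44 (adjusted p = 0.196 and 0.0958).

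The CTP synthases Ctps and Ctps2 had log2 fold changes of -0.29 and -0.05 (adjusted p = 0.180 and 0.803), and that of Ctps2 was 0.042 after quantile normalization and 0.034 after cyclic loess. Uck2, a uridine and cytidine kinase of salvage, was between 9.96 and 10.13 on the PBS arrays and between 9.73 and 9.93 on the hBD-2 arrays. These groups did not overlap, but the log2 fold change of -0.24 did not pass (adjusted p = 0.152).

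Of the kinases that raise nucleotides to di- and triphosphates, Nme1 fell. This nucleoside diphosphate kinase was at 9.22, 9.24, 9.03 and 9.13 with PBS and 8.84, 8.79, 8.42 and 8.63 with hBD-2 (1.40-fold, log2 fold change -0.49, SE 0.110, adjusted p = 0.0319). The groups did not overlap. Its neighbour and close relative Nme2 was at 10.08 ± 0.0483 and 9.78 ± 0.0910 (log2 fold change -0.30, adjusted p = 0.0750), and whether the array fully separates these similar sequences was not tested. Cmpk1, the UMP and CMP kinase, and Guk1, the guanylate kinase, had log2 fold changes of -0.27 and -0.11 (adjusted p = 0.0999 and 0.608).

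Among the 7 deoxynucleotide genes, Dut and Tyms fell. Dut, the dUTPase that makes dUMP and keeps uracil out of DNA, lay between 7.46 and 7.58 on the PBS arrays. On the hBD-2 arrays it was at 6.88, 6.81, 6.64 and 6.65, a gap several times the spread of the PBS arrays. This was the largest change of the 35 members and the one with the smallest p (1.71-fold, log2 fold change -0.78, SE 0.0922, adjusted p = 0.00112). Tyms, the thymidylate synthase that turns dUMP into dTMP, was at 8.76, 8.64, 8.54 and 8.76 with PBS and 8.43, 8.03, 7.81 and 8.01 with hBD-2 (log2 fold change -0.60, SE 0.128, adjusted p = 0.0252). Here hBD-2 replicate 1 lay closest to the PBS arrays.

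The subunits of ribonucleotide reductase did not pass. Rrm1, the large subunit, was at 9.97 ± 0.0838 and 9.59 ± 0.157, without overlap (log2 fold change -0.38, adjusted p = 0.0579), and Rrm2, the S phase small subunit, had a log2 fold change of -0.29 (adjusted p = 0.154). Tk1, the cytosolic thymidine kinase, was between 7.02 and 7.12 with PBS and 6.63 and 6.91 with hBD-2 (log2 fold change -0.32, adjusted p = 0.0711). Dtymk, the thymidylate kinase, and Dck, the deoxycytidine kinase, had overlapping groups and log2 fold changes of -0.18 and -0.11.

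**Figure D3:**
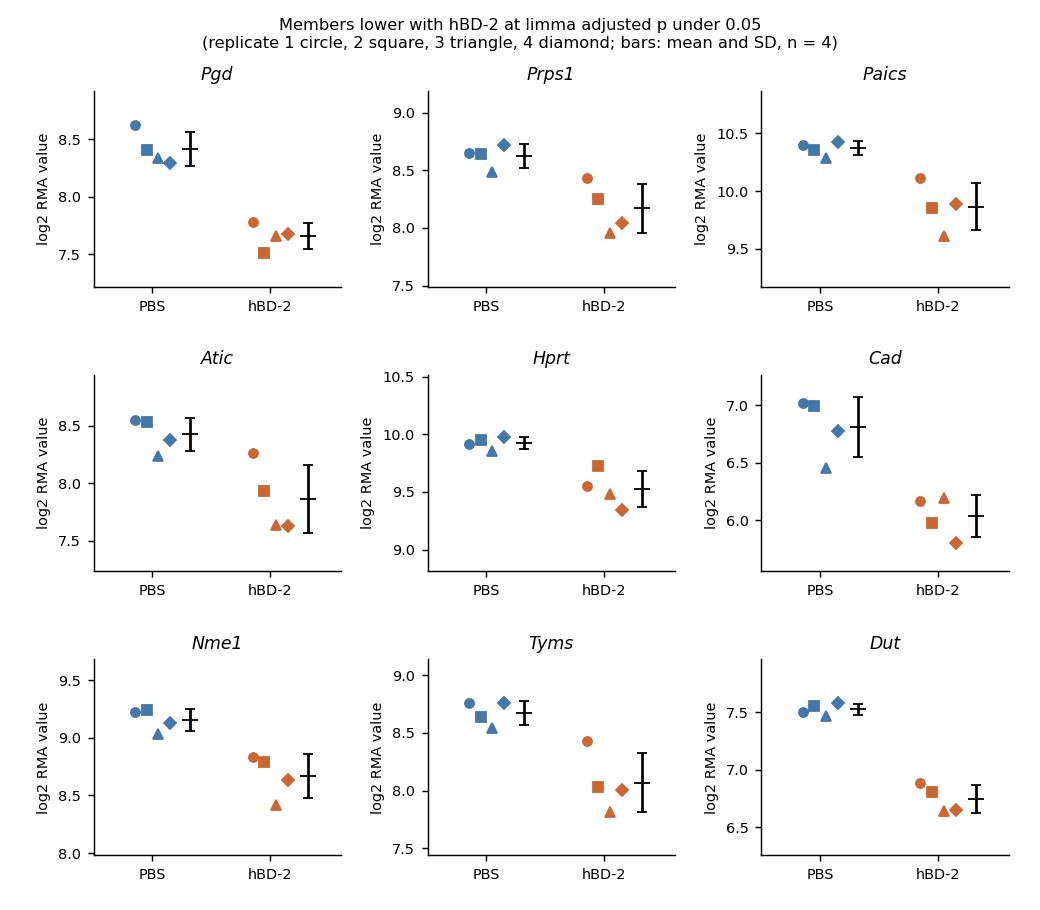
Log2 RMA value (y axis, the same span in each panel) on each array for the 9 members that fell, with symbols for the replicates and bars for mean and SD (n = 4). Dut, Pgd and Cad show the widest gaps between the groups, and the groups of Atic overlap.

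Related enzymes that do the same chemistry were compared pair by pair, by asking whether the log2 difference between them changed from PBS to hBD-2. Of 7 measured pairs, 0 passed after adjustment over the pairs (exact permutation test, two-sided, lowest adjusted p = 0.200). With 4 and 4 arrays, 1 pair alone cannot pass this adjustment even at the lower limit of the test. The count of 0 therefore says nothing about any single pair. The deoxynucleoside kinases Dck and the mitochondrial Dguok differed most clearly, with log2 fold changes of -0.11 and 0.33, a difference of -0.44 (SE 0.136) whose groups did not overlap (exact p = 0.0286, the lower limit of this test with 4 and 4 arrays). The difference was 0.69 (SE 0.303) for Adss over Adssl1 (exact p = 0.143), -0.23 (SE 0.112) for Prps1 over Prps2 (exact p = 0.143) and -0.24 (SE 0.145) for Ctps over Ctps2 (exact p = 0.171). It was -0.19 (SE 0.0750) for Nme1 over Nme2 (exact p = 0.0571), -0.16 (SE 0.108) for Rrm2 over Rrm2b (exact p = 0.171) and 0.10 (SE 0.0932) for Uck1 over Uck2 (exact p = 0.343). These p-values do not show that the pairs changed alike.

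**Figure D4:**
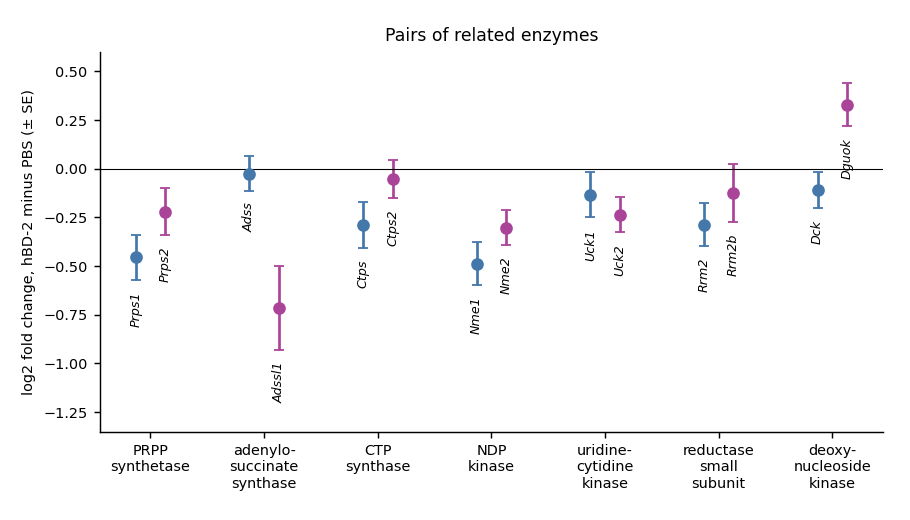
Log2 fold change, hBD-2 minus PBS (y axis, points with SE from limma), of both genes in each of 7 pairs of related enzymes (x axis). Dguok is the gene above 0, at 0.33, and the pair Adss and Adssl1 has the widest distance between its points.

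Other genes of nucleotide metabolism were taken from 7 lists outside the 39. Of their 85 genes, 74 were measured, 7 fell and 0 rose, with a median log2 fold change of -0.12. The log2 fold change was below 0 in 49 and above 0 in 25, where 46.1% of all genes were below 0. Over all genes tested, 3.66% fell, 0.8% rose and the median was 0.02. Ak4, an adenylate kinase of the mitochondrial matrix, fell most, from 8.14, 8.07, 7.76 and 7.81 to 7.26, 7.11, 6.52 and 6.87 (log2 fold change -1.01, adjusted p = 0.00506). Every hBD-2 array of Ak4 was below every PBS array, and the call held whichever array was left out (highest adjusted p = 0.0218). Slc25a33, a mitochondrial carrier of pyrimidine nucleotides, had a log2 fold change of -0.68 (adjusted p = 0.00876) at a dim level, 4.46 ± 0.162 with PBS and 3.78 ± 0.167 with hBD-2. The plasma membrane nucleoside transporter Slc29a1 fell by 0.44 on the log2 scale (adjusted p = 0.0466), and passed again only when hBD-2 replicate 1 or 2 was the omitted array (highest adjusted p = 0.126).

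Pnp, the purine nucleoside phosphorylase, fell by 0.58 on the log2 scale (adjusted p = 0.0116). Dctd, the dCMP deaminase that is another source of dUMP, fell by 0.61 (adjusted p = 0.0441). It kept this call when replicate 3 of PBS, or replicate 1 or 2 of hBD-2, was omitted and lost it when any other array was (highest adjusted p = 0.121). In the folate list, whose enzymes carry the carbon units for purines and thymidylate, 2 of 11 fell, against 3.66% of all genes. The 2 were the mitochondrial Mthfd1l (log2 fold change -0.66, adjusted p = 0.0120) and Shmt1 (log2 fold change -0.70, adjusted p = 0.0357), a cytosolic serine hydroxymethyltransferase. Shmt1 kept its call without hBD-2 replicate 1 or 2 and lost it without any of the other 6 arrays (highest adjusted p = 0.103). Mthfd1 and the folate carrier Slc19a1 had log2 fold changes of -0.60 and -0.42 (adjusted p = 0.0606 and 0.0621).

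None of 8 other pentose and ribose genes passed, where Pgm2, Shpk and Tktl2 had log2 fold changes of -0.27, -0.25 and 0.23. None of 11 pyrimidine salvage and breakdown genes passed, with a median of 0.04 and log2 fold changes of 0.34 for Dpys, -0.41 for Nt5c3 and 0.23 for Upb1. The nucleoside transporter Slc28a2 had a log2 fold change of 0.35 (adjusted p = 0.134), and the purine genes Pnp2, Xdh and Gda had -0.35, -0.30 and 0.25. The kinases Nme6, Nme3 and Nme7 were at -0.62, -0.39 and -0.32 without passing.

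Lists of related processes were read beside the members. Of 19 DNA replication genes (median log2 fold change -0.37), 4 fell and 0 rose, against 3.66% and 0.8% of all genes. Of these Mcm3 held its call without any single array, Fen1 only without hBD-2 replicate 1, Mcm5 only without hBD-2 replicate 1 or 2, and Rfc3 only without replicate 3 of PBS or replicate 1 of hBD-2 (highest adjusted p = 0.128, 0.116 and 0.122). Of 14 mitotic genes 0 passed by limma, with a median of -0.20 and 13 below 0. At an unadjusted limma p under 0.05, 6 of them passed, all lower, against 12.8% of all genes and 19.6% of the brighter ones. In 7 mitotic genes all hBD-2 arrays lay below all PBS arrays and in 1 above, against 9.36% and 5.51% of all genes. Among the brighter genes 14.8% lay below in this way. In the fit over all genes, 687 of the 11703 brighter genes fell and 111 rose. Of 13 glycolysis genes 12 fell, against 3.66% of all genes, with a median of -0.74, against 0.02 over all genes. The log2 fold change was -2.17 for Aldoc, -1.1 for Hk2, -0.98 for Tpi1, -0.95 for Pgam1, -0.87 for Pfkl and -0.81 for Hk1. It was -0.74 for Pfkp, -0.71 for Pgk1, -0.64 for Pfkm, -0.54 for Aldoa, -0.53 for Pkm and -0.50 for Ldha. Ldha kept its call only without hBD-2 replicate 1 (highest adjusted p = 0.0986), and the other 11 kept theirs in all 8 omissions of an array. Myc, a transcription factor that acts on many nucleotide synthesis genes, was at 10.95, 10.97, 10.74 and 10.91 with PBS and 10.81, 10.79, 10.44 and 10.66 with hBD-2 (log2 fold change -0.22, adjusted p = 0.251). The groups of Myc overlapped. Of the 5 measured genes of the Myc list 0 passed by limma (1 at an unadjusted p under 0.05), 3 were above 0 and the median was 0.04. Mxd1, which competes with Myc for Max, had the smallest p of that list, with every hBD-2 array above every PBS array and a difference of 0.33 (adjusted p = 0.0844), and Max was at -0.18 (adjusted p = 0.259).

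Promoter windows from RefSeq (GRCm38.p6, from 250 bases before to 50 after an annotated start) were found for 34 of the 35 members. They were searched on both strands for letters bound by factors linked to growth, and a match in any window of a gene counted. The E-box CACGTG, which Myc with its partner Max and other factors of that class can bind, was in the windows of 5 of 34 members and of 9.26% of the 15691 tested genes with a window. These were Paics, Atic, Nme1, Tyms and Dtymk, of which all but Dtymk fell. The other falling members, Dut, Pgd, Cad, Prps1 and Hprt, had no E-box within these windows. Bases outside the windows were not searched, so an E-box elsewhere in these genes is not excluded. The part of the motif in the falls was not tested. The E2F-type motifs TTTCCCGC or TTTNGCGC were in 2 of 34 members, Prps2 and Ppat, against 3.7% of genes. The ATF4-type motif TGATGNAA was in 1, Prps1, against 3.95%. No member held more than 1 of these motifs. A match is a stretch of letters and not a measured site.

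Shown here are the stretches before the start that hold the E-box, in capitals, in the falling members where no annotated gene spans the stretch, 5′ to 3′ on the strand of the gene:
Atic (chr1:71557096-71557155, plus strand): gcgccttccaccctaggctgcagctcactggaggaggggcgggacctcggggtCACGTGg
Tyms (chr5:30073654-30073713, minus strand): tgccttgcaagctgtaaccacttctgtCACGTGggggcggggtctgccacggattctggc
Nme1 (chr11:93968273-93968332, minus strand): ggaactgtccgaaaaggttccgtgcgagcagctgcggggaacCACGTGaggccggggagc
The hexamer ends 1 base before the annotated start in Atic, 12 bases before it in Nme1 and 55 bases before it in Tyms. A further E-box of Nme1 ends 23 bases before a second annotated start, and its stretch is not printed because it lies within the span of Nme1. The stretch of Paics is not printed because it lies within the span of Ppat.

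Cell type markers were read in the same arrays. The 10 measured T cell genes, such as Cd3e, had a mean log2 level of 10.19 to 10.28 on the arrays of either group and none passed, and none of Cd4, Cd8a and Cd8b1 passed. The level of Cd4 was 9.67 to 9.87 with PBS and 9.59 to 9.93 with hBD-2. The mean of the 2 CD8 genes was 10.85 to 10.95 with PBS and 10.98 to 11.03 with hBD-2, so that it was higher on every hBD-2 array, and its part in the members' changes was not tested. The mean of 7 B cell genes was 4.75 to 5.76 with PBS and 4.82 to 6.35 with hBD-2, highest on replicates 2 and 4 of each group, and none passed. Of 5 mast cell and basophil genes 2 rose, Cpa3 and Fcer1a, against 0.8% of all genes. The list's mean was 4.15 to 4.18 with PBS and 4.48 to 5.09 with hBD-2. Fcer1a lost its call without PBS replicate 1, 2 or 4 or hBD-2 replicate 4 (highest adjusted p = 0.0940). Of 7 myeloid genes 1 fell, Itgam, against 3.66% of all genes, with list means of 3.95 to 4.30 and 3.89 to 4.26. Itgam kept its call only without PBS replicate 1 (highest adjusted p = 0.126). Dendritic, natural killer and erythroid genes had none past the threshold. The mean of 10 ribosomal protein genes was 11.49 to 11.53 with PBS and 11.49 to 11.55 with hBD-2, with none past the threshold. The part of the mast cell and basophil transcripts in the members' changes was not tested.

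**Figure D5:**
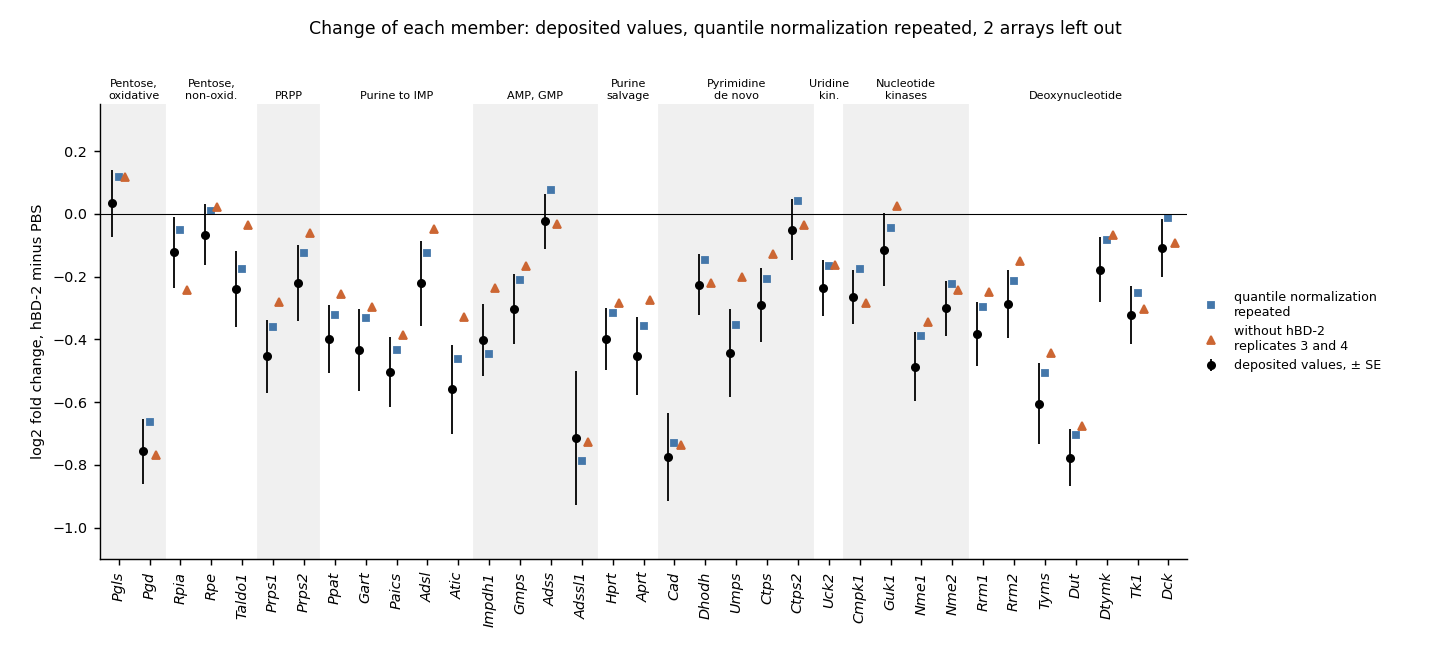
Log2 fold change, hBD-2 minus PBS (y axis), of each member (x axis, grouped by arm) with the deposited values (black, with SE), with quantile normalization repeated (blue) and without hBD-2 replicates 3 and 4 (orange). Pgd, Cad and Dut lie between -0.78 and -0.66 in all 3, while most other members lie closer to 0 in the latter settings.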

How the data were processed

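For each of the 8 arrays the deposited values are log2 expression levels of 22203 probe sets, which the authors made with oligo and its RMA (robust multi-array average) method, per the submitters' processing notes. No version, setting or genome build is named in the labels. RMA compresses differences at low levels, so folds of dim genes may be too small. Platform annotation gave a single symbol to 19572 probe sets, which left 19505 genes with the brightest probe set kept for each. Groups were compared by limma 3.58.1 (R 4.3.3) with no block, two-sided, and p-values were adjusted by Benjamini-Hochberg over all 19505 genes with a threshold of 0.05. The script was tested on simulated data. Enzyme pairs were compared with exact permutation tests. The number of arrays limits the precision. Members, lists and tests were chosen with earlier results of these data known. Named were all members, genes of the other lists past the threshold and up to 3 more of each with the smallest p.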

Additional observations from a re-analysis of the deposited data

Results flagged for a closer look

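In 70 groups of 4 arrays (35 members in both conditions), 1 value stood far from the rest of its group. Aprt was at 9.07 on PBS replicate 1 and between 8.81 and 8.85 on the other 3 PBS arrays. Chance gives such a gap in about 1 of 20 groups.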

How the results depend on the processing

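The count of members lower, 9 with the deposited values, was 5 with quantile normalization repeated, 17 with dim genes left out, 20 with a variance trend and robust estimation and 2 without hBD-2 replicates 3 and 4. It ranged from 3 to 13 when single arrays were left out. No member was higher under any of the 15 alternatives. Over all genes the count of 869 was 1541 with dim genes left out, 2033 with the variance trend and robust estimation, 128 without hBD-2 replicates 3 and 4, and 312 to 1396 without single arrays. Of called genes, 82.0% were lower, against 69.7% under quantile normalization and 72.4% under cyclic loess. The members' median, -0.30, was -0.23 after quantile normalization, -0.22 after cyclic loess, -0.24 without hBD-2 replicates 3 and 4, and -0.35 to -0.27 without single arrays. The causes were not tested. With the replicate block, 9 members and 857 genes passed, and Gart (limma adjusted p = 0.0413) replaced Hprt. Same-numbered arrays deviated together with correlations of 0.18, 0.06, 0.16 and 0.0048, and differently numbered arrays with -0.15 to 0.09. The hBD-2 replicates 1, 2 and 3 each correlated best with the PBS array of the same number. Replicate 4 of hBD-2 correlated best with PBS replicate 3 (0.09), and PBS replicate 2 with hBD-2 replicate 4 (0.08). The main fit took no pairs because the labels do not tie arrays to mice, and whether the numbers mark mice was not tested. With every probe set tested, 7 members were lower. Signs turned, for values that did not pass, in Rpe (0.0078 with quantile normalization, 0.0053 with cyclic loess, 0.023 without hBD-2 replicates 3 and 4), Adss (0.076 and 0.061 under the same normalizations, -0.050 to 0.0029 without single arrays), Ctps2 (0.042 and 0.034 under them), Guk1 (0.024 without hBD-2 replicates 3 and 4) and Pgls (-0.043 to 0.087 without single arrays). For the enzyme pairs, 3 arrays against 4 or sign changes within numbers cannot reach the threshold, and counts were not made there.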
